A study of Mus musculus with 2 samples.

Results

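The 9 genes described here encode enzymes that make, salvage or remove deoxynucleotides, the building blocks of DNA, and were chosen by name for that role. They are Rrm1, Rrm2, Tyms, Tk1, Dut, Dck, Samhd1, Dctpp1 and Dtymk, 9 of the 30905 genes listed in the deposited count tables. Their transcripts were measured by droplet single-cell RNA sequencing, in which each captured RNA molecule carries a unique molecular identifier (UMI), in germinal center B cells from mouse spleen. There were 2 libraries of 1 kind, called library 1 and library 2, from 8-week-old C57BL/6J mice immunized with sheep red blood cells. No untreated or other control group was analysed here. All comparisons are therefore between classes of cells inside the same libraries: light and dark zone gates, IgG and IgM cells, and cell cycle states. Nothing in the labels ties each library to its own animals, so every p-value rests only on these libraries, whose spread may be technical. With the library as a block in the fit, p-values and standard errors (SE) rest on a spread of class differences between the libraries that is shared across genes. They do not measure how far a gene's own difference varied between the libraries. For that, the values of each library have to be read.

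Ribonucleotide reductase, built of the Rrm1 and Rrm2 proteins, converts ribonucleotides into deoxynucleotides and is the rate-limiting step of new synthesis. Tyms makes thymidylate, Dut removes the DNA-damaging nucleotide dUTP and supplies the substrate of Tyms, and Tk1 and Dck recover deoxynucleosides by phosphorylation. Dtymk carries thymidylate on to the next phosphate, Dctpp1 breaks down surplus and modified dCTP, and Samhd1 hydrolyses deoxynucleotides, most of all outside S phase. Germinal center B cells divide rapidly in the dark zone, mutate their antibody genes there and are selected in the light zone, so their demand for deoxynucleotides is large.

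The deposited matrices held 8765 barcodes with 75121538 UMIs (library 1) and 7868 with 61874342 UMIs (library 2). The cells kept, 5142 and 3526, had 500 genes and 1000 UMIs or more, with no more than 20% of UMIs mitochondrial. For calling zone gates and phases, 3400 UMIs were drawn at random from each cell, which left 4677 and 3135 cells and put aside 465 and 391 shallower ones. Median depths before thinning were 8900 and 9240 UMIs. The libraries shared 22 barcode sequences. Of the germinal center B cell markers, Cd79a had a UMI in 96.5% and 96.8% of cells, Mki67 in 82.2% and 81.6%, and S1pr2 in 47.5% and 45.9%. Each of the 6 T cell, 3 natural killer, 6 macrophage, 3 neutrophil, 3 stromal and 2 platelet markers had a UMI in at most 0.478% of the fixed-depth cells. Among 3 dendritic cell markers Siglech had 0 UMIs, but Flt3 was in 7.31% and 8.87% of cells, and of 4 erythroid markers Hbb-bt was in 8.59% and 9.06%. The naive or memory B markers Fcmr (35.7% and 41.4%) and Fcer2a (30.9% and 29.6%) and the plasmablast marker Jchain (71.6% and 73.0%) were in many cells.

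A cell entered the light zone gate (1629 and 1188 cells) if Cd83 or Cd86 was detected and Cxcr4 was not. The reverse put it in the dark zone gate (783 and 501 cells). These gates read as RNA the surface proteins used to sort the zones, and a gene without a UMI may still be expressed. IgG cells (2024 and 1315) and IgM cells (1656 and 1207) had 5 or more heavy chain UMIs, with 80% or more coming from Ighg genes for the former and from Ighm plus Ighd for the latter. Isotypes were read on counts before thinning. G1-like (1075 and 641), S-like (1415 and 1004) and G2/M-like cells (2187 and 1490) were called from scores of 40 S phase and 53 G2/M phase genes, from which all 9 enzyme genes and the other nucleotide genes named below had been removed. A phase called this way is a range of a score, and 12.6% and 12.2% of cells lay within 0.05 of a boundary. Raw counts were summed per library and class and given as CPM, the UMIs of a gene scaled to a fixed total of UMIs of that class, and classes were compared with edgeR's quasi-likelihood test with the library as a block. A gene is said to have changed, or to be called, where its Benjamini-Hochberg adjusted p over all genes tested was below 0.05.

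The promoters of 4 of the genes are printed because their transcripts followed the cycle differently: Rrm1 and Rrm2, the subunits of 1 enzyme, Tyms, which was highest in the same state as Rrm2, and Dck, which moved least among the genes that rose. The sequences are RefSeq's for GRCm38.p6, 5′ to 3′ on the coding strand, and end before the gene body in GENCODE M21. Capitals mark E2F words (the word TTCCCGC, the word TTGGCGC, the word TTCGCGC and the word TTGCCGC), the CCAAT box (CCAAT) and the CHR element of late cell cycle genes (the word TTTGAA and the word TTCGAA), each searched on both strands over 250 bases before the RefSeq start.
Rrm1, chr7:102441445-102441694, plus strand: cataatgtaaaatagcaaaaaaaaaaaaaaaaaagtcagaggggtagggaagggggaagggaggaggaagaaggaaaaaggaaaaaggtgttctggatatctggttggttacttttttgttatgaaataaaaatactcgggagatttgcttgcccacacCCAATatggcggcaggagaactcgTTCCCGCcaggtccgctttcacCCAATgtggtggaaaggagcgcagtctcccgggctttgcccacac
Rrm2, chr12:24708004-24708240, plus strand: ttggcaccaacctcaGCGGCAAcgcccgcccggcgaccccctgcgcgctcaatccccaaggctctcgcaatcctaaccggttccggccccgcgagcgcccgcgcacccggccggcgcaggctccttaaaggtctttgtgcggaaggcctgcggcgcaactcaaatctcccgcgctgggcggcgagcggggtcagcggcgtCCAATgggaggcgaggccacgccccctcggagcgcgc
Tyms, chr5:30073626-30073875, minus strand: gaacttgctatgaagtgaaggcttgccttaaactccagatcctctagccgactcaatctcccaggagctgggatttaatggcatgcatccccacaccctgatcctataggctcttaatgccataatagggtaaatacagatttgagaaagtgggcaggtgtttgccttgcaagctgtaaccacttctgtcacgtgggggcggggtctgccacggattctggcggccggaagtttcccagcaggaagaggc
Dck, chr5:88764763-88764995, plus strand: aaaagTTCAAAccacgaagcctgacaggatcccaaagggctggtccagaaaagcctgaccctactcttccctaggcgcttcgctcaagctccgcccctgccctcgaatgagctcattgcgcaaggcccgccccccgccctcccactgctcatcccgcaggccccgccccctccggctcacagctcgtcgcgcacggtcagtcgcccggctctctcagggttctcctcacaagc
An E2F word was present before Rrm1 (67 bases upstream), Rrm2 (235 bases, on the other strand) and Dtymk (72 bases), 3 of the 9 genes, against 7.89% of 32851 promoters of the same length. CCAAT was present in 4 of 9 (Rrm1, Rrm2, Dctpp1 and Dtymk) against 33.9%, and a CHR word only in Dck against 17.2%. The Tyms window held none of these words. The searched windows of Rrm2, Tk1, Dut, Dck, Samhd1 and Dctpp1 reach into the gene's own exons in GENCODE M21. That of Dut lies wholly inside its gene. The letters alone say nothing about which factors bind there.

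Across the cell cycle, 8 of the 9 transcripts rose from G1-like to S-like cells and Samhd1 fell. Of the 10686 genes tested 56.9% were called, 29.2% higher and 27.8% lower, so a call by itself was common. By size of fold change from the highest, Rrm2 was at rank 5, Tyms at 105, Rrm1 at 127, Tk1 at 173, Dut at 268, Dctpp1 at 311 and Dtymk at 494, while Dck, at 1348, and Samhd1, at 9066, changed by amounts common among all genes. Rrm2, the subunit whose protein is made and destroyed each cycle, was at 16.9 and 15.2 CPM in G1-like cells and at 270 and 318 CPM in S-like cells of libraries 1 and 2, an increase of 4.21 ± 0.08 (SE) on the log2 scale (adjusted p = 1.49e-19). Rrm1, the large and stable subunit, went from 44.8 and 46.8 to 240 and 258 CPM, a log2 change of 2.50 ± 0.06 (adjusted p = 8.49e-18). In both libraries the lowest S-like value lay far above the highest G1-like value.

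**Figure D1:**
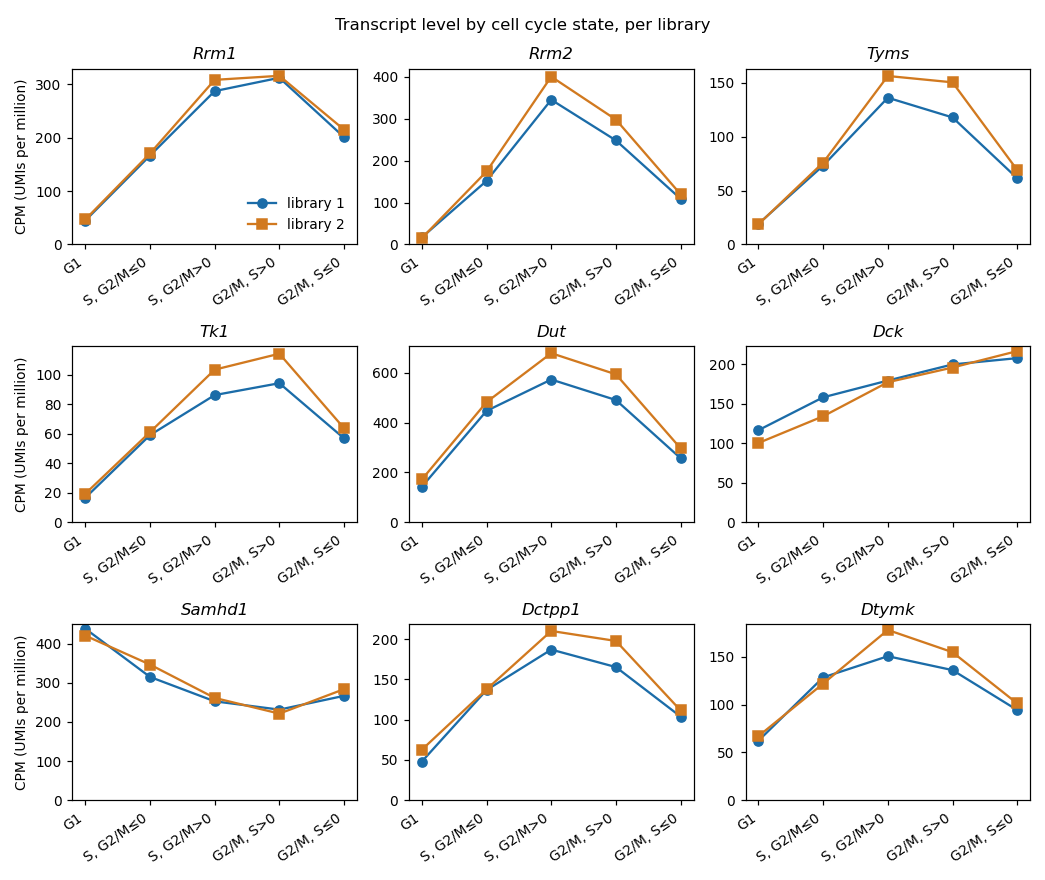
Level of each of the 9 transcripts (CPM, vertical axes from 0) in 5 cell cycle states, as 1 point per library (blue circles, library 1; orange squares, library 2), with lines joining the states of a library. Rrm2, Tyms, Dut, Dctpp1 and Dtymk peak in S-like cells whose G2/M score is above 0, Rrm1 and Tk1 in G2/M-like cells whose S score is above 0, Dck in G2/M-like cells whose S score is at or under 0, and Samhd1 is highest in G1-like cells.

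The thymidylate enzymes followed. Tyms rose from 19.2 and 18.8 CPM in G1-like to 112 and 127 CPM in S-like cells, by 2.69 ± 0.08 on the log2 scale (adjusted p = 8.74e-17). Tk1, the salvage kinase for thymidine, rose from 16.6 and 19.4 to 75.7 and 88.1 CPM, by 2.24 ± 0.08 (adjusted p = 3.25e-15). Dut rose from 143 and 172 to 523 and 607 CPM, by 1.90 ± 0.05 (adjusted p = 2.29e-17). For all 3 the classes did not overlap between libraries. Dctpp1 rose by 1.74 ± 0.07, from 48.1 and 62.8 to 167 and 184 CPM. Dtymk rose less, by 1.26 ± 0.06, from 62.2 and 67.0 to 142 and 158 CPM. The deoxycytidine kinase Dck changed least among those that rose, by 0.66 ± 0.06, from 117 and 100.5 to 171 and 162 CPM. Samhd1, the deoxynucleotide hydrolase, went the other way, from 438 and 420.5 CPM in G1-like to 277 and 292 CPM in S-like cells, and fell by 0.54 ± 0.05 on the log2 scale (adjusted p = 3.27e-09).

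The same pattern stood in the share of cells with a UMI at equal depth. Rrm2 had a UMI in 2.42% (exact 95% binomial interval 1.59 to 3.52) and 3.12% (1.92 to 4.78) of G1-like cells but in 40.6% and 44.8% of S-like cells. Samhd1 had one in 75.9% and 73.3% of G1-like cells and in 61.8% and 66.5% of S-like cells. The intervals cover counting error only, and free RNA in droplets can put a UMI of a gene into a cell that does not express it, and that background was not measured apart from the G1-like share. G1-like cells were shallower before thinning, with medians of 5558 and 5887 UMIs against 9627 and 9980 in S-like cells. Markers of naive or memory B cells summed to 704 and 842 CPM in G1-like against 289 and 324 CPM in S-like cells, and 6 macrophage markers to 53.8 and 10.7 against 1.30 and 0.519 CPM. A stricter set held barcodes with 3 or more germinal center markers and fewer than 2 T, natural killer, macrophage, neutrophil or stromal markers. It kept 1035 and 602 G1-like cells, and all 9 calls between S-like and G1-like cells were as before. Naive or memory B markers had no limit in this set, so their part was not tested. With every cell at 3400 UMIs before summing, all 9 calls also remained, at log2 changes of 4.72 ± 0.13 for Rrm2, 2.54 ± 0.09 for Rrm1 and -0.46 ± 0.05 for Samhd1.

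From S-like to G2/M-like cells the 9 genes separated, with 6 called lower, 1 higher and 2 not called, against 46% of 11282 genes called, 23.4% lower and 22.6% higher. Rrm2 fell most, by 0.64 ± 0.03 on the log2 scale, to 172 and 204 CPM (adjusted p = 6.92e-16), and Dut fell by 0.50 ± 0.02, to 363 and 437 CPM (adjusted p = 5.4e-15). Dtymk, Dctpp1 and Tyms fell by 0.32, 0.31 and 0.30, and Samhd1 fell by 0.17 ± 0.03 further (adjusted p = 1.03e-05). Rrm1 stayed level within its error (0.05 ± 0.03, adjusted p = 0.133), as did Tk1 (-0.02 ± 0.04, adjusted p = 0.704). Dck rose by 0.30 ± 0.03, from 171 and 162 to 204 and 207 CPM (adjusted p = 2.05e-08). The libraries gave the same direction for all 7 called genes. These calls rest on comparing classes within a library: without the library block Rrm2 alone of them stayed below the threshold.

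Dividing S-like cells by their G2/M score and G2/M-like cells by their S score, the second division being chosen after the design was set, ordered the peaks more finely, and both libraries gave the same highest and lowest state for every gene. Rrm2 reached 345 and 400 CPM in S-like cells with a G2/M score above 0 and stood at 248 and 298 CPM in G2/M-like cells with an S score above 0. Rrm1 reached 287 and 308 CPM in the first of these states and 312 and 316 CPM in the second, so the subunits were highest in different states, although for Rrm1 in library 2 the neighbouring states differed by less than the libraries did. Tk1 likewise was highest in the second state, at 94.2 and 114 CPM against 86.2 and 103 CPM, and these states too differed by less than the libraries did. Dck climbed through all states, from 117 and 100.5 CPM in G1-like to 208 and 217 CPM in G2/M-like cells with an S score at or under 0. Samhd1 was lowest, at 232 and 221 CPM, in G2/M-like cells with an S score above 0, and stood at 267 and 284 CPM in those without. The state with both scores raised could also hold barcodes with RNA of more than 1 cell, since the doublet caller marked 0 barcodes in either library. Without the barcodes of the highest 6% of doublet scores, all 9 calls between S-like and G1-like cells and all 7 calls between G2/M-like and S-like cells remained. Levels in the finer states were not read again without these barcodes, so the part of doublets in the peaks was not tested.

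Between the zone gates, 5 of the 9 genes were called lower in light zone gate cells and 0 higher, against 31.1% of 10706 genes called, 14.8% lower and 16.3% higher. Dck stood out in size. It was at 152 and 139 CPM in light and at 217 and 234 CPM in dark zone gate cells, and fell by 0.64 ± 0.05 on the log2 scale (adjusted p = 9.18e-33). Rrm1 was at 191 and 208 CPM in light and at 252 and 249 CPM in dark zone gate cells, a log2 difference of -0.35 ± 0.05 (adjusted p = 2.53e-11). Rrm2 was at 150 and 194 against 194 and 219.5 CPM, -0.30 ± 0.05 (adjusted p = 1.09e-07). For Dck and Rrm1 the gates lay well apart, whereas for Rrm2 the light zone value of library 2 came close to the dark zone value of library 1. Dck kept its call under every alternative run, and Rrm1 and Rrm2 lost theirs only without the library block (adjusted p = 0.124 and 0.302).

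Tk1 and Samhd1 were called lower by less, and neither call was stable. Tk1 was at 59.2 and 72.6 against 73.3 and 79.6 CPM (-0.24 ± 0.07, adjusted p = 0.00178), but stood at 0.0070 (log2) when the gates were read on unthinned counts. Samhd1 was at 284 and 288 against 293 and 322 CPM (-0.12 ± 0.05, adjusted p = 0.037), and DESeq2 gave an adjusted p of 0.439 for it and 0.313 for Tk1. Dut (-0.10 ± 0.04, adjusted p = 0.0633), Tyms (-0.02 ± 0.06), Dctpp1 (0.07 ± 0.06) and Dtymk (0.07 ± 0.06) were not called, and for Tyms and Dctpp1 the libraries differed in sign. With another random seed for thinning, Dut was called lower (-0.11) and Dtymk higher (0.13), and Dut was also called lower with the mitochondrial limit at 10% (-0.23) or 40% (-0.14).

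The gates differed in markers of other cells. Those of naive or memory B cells summed to 493.5 and 514 CPM in light against 241 and 265 CPM in dark zone gate cells, and macrophage markers to 6.25 and 3.42 against 0.535 and 0.661 CPM. With only barcodes that carried 3 or more germinal center markers and fewer than 2 markers of other lineages, the same 5 genes were called lower. Dck differed by -0.63 ± 0.05 and Rrm1 by -0.34 ± 0.05. Nearly all cells were kept, 1607 and 1167 of the light and 779 and 499 of the dark zone gate. The rule set no limit on naive or memory B markers, so the part of such cells was not tested. The gates also held different mixes of phases. G1-like cells made up 33.5% and 29.0% of light against 15.3% and 11.8% of dark zone gate cells, and G2/M-like cells 34.3% and 34.2% against 59.9% and 59.7%. With cells drawn to equal phase shares within each library, Dck was still lower in the light zone gate (-0.50 ± 0.05, adjusted p = 1.65e-18), as were Rrm2 (-0.30 ± 0.05), Samhd1 (-0.24 ± 0.05) and Rrm1 (-0.17 ± 0.05, adjusted p = 0.00585). Tk1 was then not called (-0.15 ± 0.07, adjusted p = 0.12). Within S-like cells alone, 3 of the 9 genes were called lower and 0 higher, against 9.97% of 9478 genes called, 4.6% lower and 5.37% higher. Dck was at 160 and 140 CPM in light and at 204.5 and 199 CPM in dark S-like cells (-0.47 ± 0.09, adjusted p = 0.000255), Rrm1 at 218 and 228 against 267 and 301.5 CPM (-0.39 ± 0.09, adjusted p = 0.000726), and Rrm2 at 234 and 289 against 297 and 327 CPM (-0.31 ± 0.08, adjusted p = 0.00788). Samhd1 missed the threshold (-0.23 ± 0.08, adjusted p = 0.059). With DESeq2 none of these 3 was called within S-like cells (adjusted p = 0.0627 for Dck, 0.0854 for Rrm1 and 0.257 for Rrm2).

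**Figure D2:**
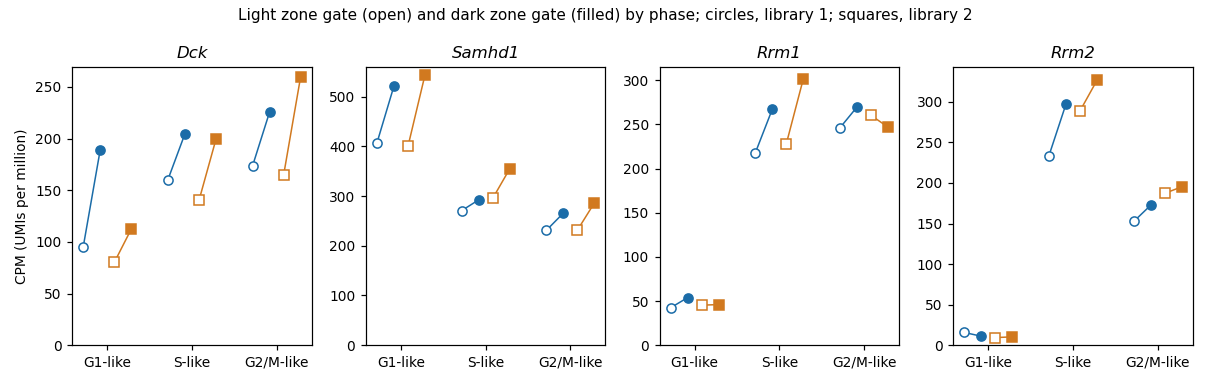
Level (CPM, vertical axes from 0) of Dck, Samhd1, Rrm1 and Rrm2 in light zone gate cells (open symbols) and dark zone gate cells (filled symbols) of each phase, joined within a library (blue circles, library 1; orange squares, library 2). Dck and Samhd1 are lower in the light zone gate in all 3 phases of both libraries, Rrm1 and Rrm2 in S-like cells of both libraries, while Rrm1 in G2/M-like cells differs in direction between libraries.

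Read phase by phase, without a test, Dck was lower in the light zone gate in G1-like cells (95.2 and 80.1 against 189 and 112 CPM), in S-like cells and in G2/M-like cells (174 and 165 against 226 and 260 CPM). Samhd1 was also lower in each phase, for example at 407 and 400 against 521 and 543.5 CPM in G1-like cells. The dark zone gate held only 120 and 59 G1-like cells, so those values rest on few cells. Rrm1 differed in S-like cells but in G2/M-like cells stood at 246 and 260 against 270 and 247 CPM, with the libraries in opposite order. Light zone gate cells had slightly lower mitochondrial shares (medians 13.1% and 12.6% against 14.2% and 13.9%). With the mitochondrial limit at 10%, which left 129 and 132 light and 41 and 39 dark S-like cells, the S-like differences of Rrm1 (-0.13 ± 0.12) and Rrm2 (-0.04 ± 0.10) were no longer called, whereas Dck (-0.52 ± 0.13, adjusted p = 0.00248) and Samhd1 (-0.43 ± 0.11, adjusted p = 0.00233) were.

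Cells in neither gate, 1690 and 1092 of them, had the highest levels of Rrm2 among the zone classes (215 and 256 CPM), and of Dut (440.5 and 520 CPM), Tyms and Dctpp1. Cells with both signals (575 and 354) had the lowest Rrm2 (134.5 and 163 CPM), Dut (271 and 353 CPM) and Dctpp1 (85.7 and 102 CPM) and, in library 1, the highest Samhd1 (354 CPM). These classes differed in depth before thinning. Medians were 10594 and 10288 UMIs for cells in neither gate and 7252 and 7529 for cells with both signals. They also held different mixes of phases. G1-like cells made up 13.67% and 14.74% of cells in neither gate against 30.96% and 21.47% of cells with both signals. S-like cells made up 32.54% and 31.23% against 25.57% and 23.45%, and G2/M-like cells 53.79% and 54.03% against 43.48% and 55.08%. The part of depth or of phase was not tested.

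IgG and IgM cells, which differ in whether the antibody gene has switched its constant region, were close for most of the 9 genes. Only Dctpp1 was called, at 136 and 164 CPM in IgG and 131 and 138 CPM in IgM cells (0.13 ± 0.04, adjusted p = 0.0276), against 14% of 11200 genes called, 5.92% higher and 8.12% lower. The classes overlapped for it across libraries, the difference being 0.03 in library 1 and 0.24 in library 2, and with DESeq2 its adjusted p was 0.944. The other 8 genes lay between -0.05 (Samhd1) and 0.10 (Tyms, ± 0.05, adjusted p = 0.173) on the log2 scale. Rrm1 was at 228 and 247 against 217.5 and 228 CPM and Dck at 185 and 183 against 180 and 174 CPM, higher in IgG cells of both libraries by less than the test could call. Within S-like cells 0 of the 9 were called by edgeR, against 4.43% of 9968 genes called, 1.44% higher and 2.99% lower. At an unadjusted 0.05, 1 of the 9 passed edgeR's quasi-likelihood test there, Dctpp1 (0.14 ± 0.06, adjusted p = 0.238), against 1492 of the 9968 genes tested. DESeq2 called 0 of the 9. The direction for Rrm2 and Dut turned with the mitochondrial limit. At 10% both were called higher in IgG cells (0.10 and 0.10), and at 40% both were called lower (-0.08 and -0.11). IgG cells had median mitochondrial shares of 13.8% and 13.7% against 12.4% and 12.1% in IgM cells.

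**Figure D3:**
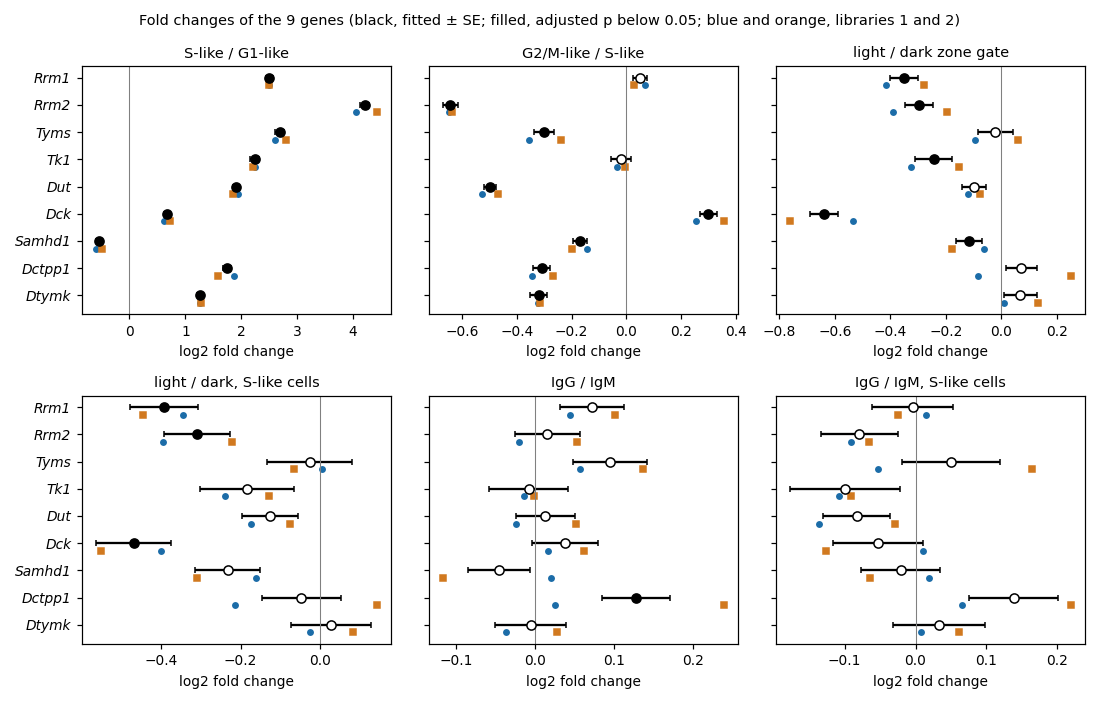
Log2 fold change of each gene in the 6 comparisons (horizontal axes, each with its own range). Black circles with bars are the fitted value ± SE, filled where the adjusted p is below 0.05, and blue circles and orange squares are libraries 1 and 2 alone. The largest fitted sizes are 4.21 for the cycle (Rrm2, S-like against G1-like), 0.64 for the zone gates (Dck) and 0.14 for the isotypes (Dctpp1, within S-like cells). From S-like to G2/M-like cells Rrm1, Tk1 and Dck differ by less than between the zone gates.

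**Figure D4:**
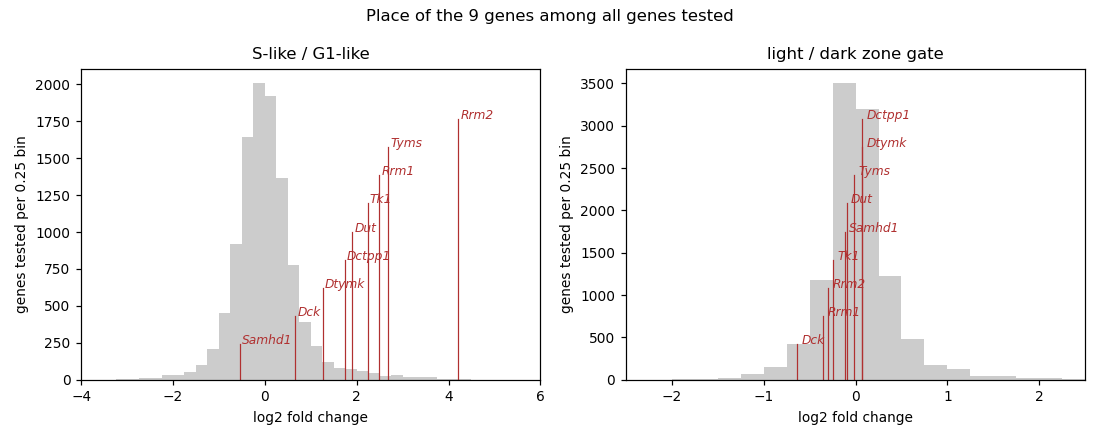
Number of genes tested per bin of log2 fold change (grey bars) for S-like against G1-like and light against dark zone gate, with the 9 genes at their values (red lines, whose height carries no meaning). Rrm2 lies at the far right for the cycle, and Dck, at rank 10323 of 10706 from the highest, lies towards the low end for the zones.

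Other genes of nucleotide supply were read from a list of 43, of which 42 were tested in each comparison. From G1-like to S-like cells 34 were called higher and 4 lower, with a median log2 change of 0.75 against -0.02 over all genes tested. All 12 purine synthesis genes, 5 of 6 pyrimidine synthesis genes and all 4 one-carbon genes rose. The one-carbon enzyme gene Shmt1 rose by 1.74 ± 0.10, from 13.6 and 16.6 to 46.0 and 49.8 CPM, and Umps and the nucleoside transporter Slc29a1 by 1.52 and 1.45. Among those that fell were Tk2 (-0.92 ± 0.16) and Dguok (-0.47 ± 0.07), the mitochondrial salvage kinases, and the nucleotidase Nt5c (-0.27 ± 0.05). From S-like to G2/M-like cells 32 fell and 4 rose. Ppat, which opens purine synthesis, fell by 0.83 ± 0.05, as did Slc29a1 (0.83 ± 0.07), and Rrm2b, the p53-inducible small subunit that can stand in for Rrm2, rose most, by 0.62 ± 0.04, from 75.4 and 66.4 to 115 and 104 CPM.

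Between the zone gates the wider list had 19 of 42 called higher in light zone gate cells and 5 lower, against 16.3% and 14.8% of all genes, with a median of 0.18 against 0.00019 over all genes. Rrm2b fell most, from 120.0 and 119 CPM in dark to 72.3 and 62.9 CPM in light zone gate cells (-0.83 ± 0.06, adjusted p = 8.37e-38). Adenosine deaminase Ada (-0.56 ± 0.05) and Cmpk1 (-0.47 ± 0.05), which phosphorylates pyrimidine monophosphates, were lower too. Higher were the deaminase Dctd (1.25 ± 0.21, at only 6.85 and 9.99 against 3.64 and 2.97 CPM), Shmt1 (0.75 ± 0.10), Aprt (0.60 ± 0.06) and Guk1 (0.58 ± 0.09). The count of 19 was not stable: it was 6 with DESeq2, 2 without the library block, 4 with thinned counts summed, 10 with gates of 2 UMIs and 12 with the mitochondrial limit at 10%. Within S-like cells 2 were called higher, Shmt1 and Aprt, near the 5.37% of all genes, and 5 lower, against 4.6%, among them Rrm2b (-0.64 ± 0.12), Ada (-0.55 ± 0.09) and Cmpk1 (-0.43 ± 0.08). Genes of the reductase reaction (Rrm1, Rrm2, Rrm2b) and Dck, like Ada and Cmpk1, were lower in light zone gate cells in the S-like class as in all cells, at adjusted p below 0.05 by edgeR. Within S-like cells Rrm1, Rrm2 and Dck were not called with DESeq2, and Rrm1 and Rrm2 were not called at the 10% mitochondrial limit. Between IgG and IgM cells 2 of the 42 were called higher and 2 lower, against 5.92% and 8.12% of all genes, no more than that background.

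Most of the 9 transcripts also differed between cells of higher and lower mitochondrial share. In cells of 10% to 20% mitochondrial UMIs Dut was at 231 and 275 CPM, against 541.5 and 615 CPM in cells of at most 10%, and Rrm2 at 119 and 130 against 248 and 293 CPM. Tyms, Tk1, Dctpp1 and Dtymk were lower there as well, Dtymk at 81.9 and 84.9 against 150 and 166 CPM. Rrm1 was at 215 and 229.5 against 227 and 241 CPM, and Dck at 189 and 181 against 175 and 177.5 CPM, whereas Samhd1 was higher (320 and 318 against 247 and 261 CPM). Inside each phase Rrm2, Tyms, Dut, Dctpp1 and Dtymk were lower and Samhd1 higher in both libraries, whereas Tk1 was higher in G1-like cells, with log2 ratios of 0.26 and 0.44. Tk1 was low there, at library means of 19.91 against 15.55 CPM. At equal depth it had a UMI in 5.49% against 5.51% of those cells, so the share did not differ. In S-like cells the log2 ratio was -1.15 and -1.24 for Rrm2, -1.17 and -1.10 for Dut, -0.01 and 0.01 for Rrm1 and 0.31 and 0.32 for Samhd1. Cells of 10% to 20% were shallower, with medians of 7415 and 7280 against 17207 and 17281 UMIs, and the part of depth, RNA loss or cell state was not tested. Genes as a whole were not read between these cells, and the CPM total includes mitochondrial UMIs. Plasmablast markers differed too, at 738 and 884 against 1692 and 1803 CPM. Naive or memory B markers were at 334 and 385 against 343 and 371 CPM. The mitochondrial limit was the rule for keeping cells, so these values are given without a test. They bear on every level above, because the barcodes passing the gene and UMI limits alone had median shares of 17.5% and 20.9%.

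**Figure D5:**
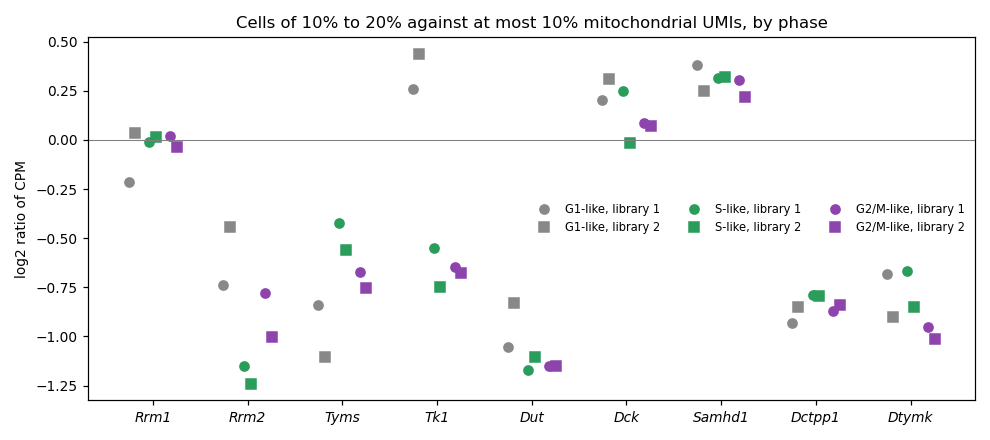
Log2 ratio of CPM between cells of 10% to 20% and cells of at most 10% mitochondrial UMIs for each gene, by phase (grey, G1-like; green, S-like; purple, G2/M-like) and library (circles, library 1; squares, library 2). Rrm1 and Dck lie between -0.21 and 0.31, Samhd1 lies between 0.22 and 0.38, and Rrm2, Tyms, Dut, Dctpp1 and Dtymk lie below 0 in every phase and library. Tk1 lies below 0 in S-like and G2/M-like cells and above 0 in G1-like cells, where its level was low.

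Cell by cell, the genes varied together only weakly at 3400 UMIs. The strongest pair was Rrm2 and Dut, with Pearson coefficients of 0.28 and 0.31 across the cells of libraries 1 and 2, followed by Rrm1 and Rrm2 with 0.25 and 0.24. Samhd1 had negative coefficients with 7 of the other 8 genes in both libraries, from -0.13 with Rrm1 to -0.06 with Tk1 in library 1, and Dck stayed between -0.02 and 0.06 with every other gene. Among 4064 genes with a UMI in at least 10% of cells, the gene most like Rrm1, Rrm2, Tyms and Tk1 was Pclaf, a factor at replication forks, with coefficients of 0.43 and 0.46 for Rrm2. The most like gene for Dut, Dctpp1 and Dtymk was Ptma, for Dck the chromatin protein gene Hmgb2 (0.18 and 0.19), a member of the G2/M list, and for Samhd1 the B cell receptor gene Cd79b (0.21 and 0.20). All cells had the same number of UMIs here, although their depths before thinning differed, and these coefficients are descriptions.

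All 9 genes are protein coding. Coordinates in GENCODE M21 on mm10 are chr7:102441695-102469771 for Rrm1, chr12:24708241-24714146 for Rrm2, chr5:30058202-30073617 for Tyms, chr11:117815526-117826092 for Tk1, chr2:125247190-125258608 for Dut, chr5:88764996-88783281 for Dck, chr2:157097533-157135265 for Samhd1, chr7:127256959-127260709 for Dctpp1 and chr1:93792576-93801934 for Dtymk. Exons of Tk1 overlap those of Afmid on the opposite strand. Near-identical copies could take or lend reads to some of them. Of all 31-base words in the last 300 bases of their transcripts, 20.6% for Rrm2 (Gm11485 and 3 others), 12.2% for Dctpp1 (Gm7653) and 11.2% for Tyms (Tyms-ps) also occur in transcripts of other genes, against 0% for Dut and Dck. The share was 6.58% for Dtymk, spread over many genes, and 3.21% for Tk1 (Gm6091). The absolute levels of Rrm2, Dctpp1 and Tyms, and to a lesser degree of Dtymk and Tk1, are therefore uncertain.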

How the data were processed

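Droplet 3′ single-cell libraries of sorted germinal center B cells were analysed. The authors deposited raw UMI counts per gene and barcode made with Cell Ranger 3.0.2, per the file headers, on mm10, per the submitters' processing notes. The 9 members and all gene lists were chosen with earlier results of these data known. Cells were filtered and thinned as the report states. Phases were scored with scanpy 1.11.5. Zone gates and phases used thinned counts, isotypes used counts before thinning, and the tests used raw sums. Sums per library and class were fitted in R 4.3.3 with edgeR 4.0.16 (TMM scaling, its expression filter, quasi-likelihood test, library as block, Benjamini-Hochberg over all genes), and DESeq2 1.42.0 was an alternative. Each fit holds 4 sums, so p-values rest on the spread shared across genes. The fits were tested on simulated data. Both classes of a pair come from the same library, and deviations of same-library sums correlated at 0.164 to 0.444 in the 6 comparisons. Scrublet marked 0 doublets and did not work, so no barcode was removed for it. All 9 members were named in each comparison. Of the nucleotide list, up to 4 called genes per direction with the largest change were named, and of the genes most like each member the closest was printed. Some genes that this rule or the marker lists would name are not reported here, and they remain in the counts.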

Additional observations from a re-analysis of the deposited data

Results flagged for a closer look

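For Dut, which removes dUTP, the log2 ratio of light over dark zone gate differed in sign between 2 phases. In G2/M-like cells the mean log2 ratio was 0.011, with 0.019 in library 1 and 0.0024 in library 2. In S-like cells it was -0.078, with -0.12 and -0.032. Both libraries gave the same sign within each phase, but in G2/M-like cells the gates were nearly level, with ratios of 1.013 and 1.002. These are ratios of CPM without TMM scaling, and with it the S-like values were -0.17 and -0.076. The difference between phases was not tested.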

How the results depend on the processing

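The 9 calls between S-like and G1-like cells and the zone gate call of Dck held under every alternative that gave a test. With 1 library left out there was no test, and the log2 changes of the S-like against G1-like comparison kept their direction in each library. Both classes of a pair were formed from cells of the same library, so the replicate block is a true pairing. The fit with 4 sums limits all tests, and cells below the fixed depth were not classed. Values outside 1.5 times the reported count, or of opposite sign, follow, and the cause was not tested. Without the replicate block, the zone gates gave 692 called genes, 1 enzyme gene lower, 2 pathway genes higher and 3 pathway genes lower. The isotypes gave 86 called genes, 0 enzyme genes higher, 0 pathway genes higher and 0 pathway genes lower. The S-like against G1-like comparison gave 3878 called genes and 2 pathway genes lower. The G2/M-like against S-like comparison gave 1041 called genes, 0 enzyme genes higher, 1 enzyme gene lower, 2 pathway genes higher and 8 pathway genes lower. Within S-like cells the zone gates gave 295 called genes, 0 enzyme genes lower and 3 pathway genes lower. Within S-like cells the isotypes gave 18 called genes and 0 pathway genes lower. With DESeq2 in place of edgeR, the zone gates gave 939 called genes, 3 enzyme genes lower and 6 pathway genes higher. The isotypes gave 270 called genes, 0 enzyme genes higher, 0 pathway genes higher and 1 pathway gene lower. The S-like against G1-like comparison gave 3163 called genes. The G2/M-like against S-like comparison gave 2002 called genes, 2 pathway genes higher and 21 pathway genes lower. S-like light against dark cells gave 154 called genes, 0 enzyme genes lower, 1 pathway gene higher and 3 pathway genes lower. S-like IgG against IgM cells gave 36 called genes and 0 pathway genes lower. At a mitochondrial limit of 10%, the zone gates gave 1808 called genes and 12 pathway genes higher. The isotypes gave 4 enzyme genes higher, 13 pathway genes higher and the opposite direction for Tk1 (0.023) and Dtymk (0.064). The G2/M-like against S-like comparison gave 2887 called genes and 18 pathway genes lower. The zone gates within S-like cells gave 553 called genes, 5 pathway genes higher and the opposite direction for Tyms (0.26), Tk1 (0.023) and Dctpp1 (0.12). The isotypes within S-like cells gave 232 called genes, 2 pathway genes higher and the opposite direction for Rrm2 (0.071), Dut (0.00041), Dck (0.021) and Samhd1 (0.018). At a mitochondrial limit of 40%, the isotypes gave 3265 called genes, 0 enzyme genes higher, 2 enzyme genes lower, 12 pathway genes lower and the opposite direction for Rrm2 (-0.084) and Dut (-0.11). Within S-like cells the zone gates gave 4 pathway genes higher and the opposite direction for Tyms (0.033) and Dctpp1 (0.096). Within S-like cells the isotypes gave 963 called genes, 2 enzyme genes lower and the opposite direction for Tyms (-0.025), Samhd1 (0.057) and Dtymk (-0.070). With classes read on unthinned counts, the zone gates gave 1 enzyme gene higher, 3 enzyme genes lower and the opposite direction for Tyms (0.034) and Tk1 (0.0070). S-like light against dark cells gave 1592 called genes, 4 pathway genes higher and the opposite direction for Tyms (0.033) and Dctpp1 (0.033). S-like IgG against IgM cells gave 191 called genes and the opposite direction for Rrm1 (0.014) and Samhd1 (0.015). With thinned counts summed, the zone gates gave 1685 called genes, 3 enzyme genes lower, 4 pathway genes higher and the opposite direction for Dctpp1 (-0.018) and Dtymk (-0.026). The isotypes gave 1002 called genes, 0 enzyme genes higher, 0 pathway genes higher, 1 pathway gene lower and the opposite direction for Dut (-0.023), Samhd1 (0.00070) and Dtymk (0.044). The G2/M-like against S-like comparison gave 2968 called genes, 2 pathway genes higher and the opposite direction for Tk1 (0.050). The zone gates within S-like cells gave 245 called genes, 1 enzyme gene lower and 0 pathway genes higher. The isotypes within S-like cells gave 270 called genes, 1 enzyme gene lower, 0 pathway genes lower and the opposite direction for Rrm1 (0.0011), Tyms (-0.10), Tk1 (0.074) and Samhd1 (0.083). With another random seed, the zone gates gave 1 enzyme gene higher. The G2/M-like against S-like comparison gave the opposite direction for Tk1 (0.00069). Within S-like cells the zone gates gave 1597 called genes and the opposite direction for Dctpp1 (0.15). Within S-like cells the isotypes gave 96 called genes. With germinal center marker barcodes only, the isotypes gave 0 enzyme genes higher, 1 pathway gene higher and the opposite direction for Rrm2 (-0.0059) and Dut (-0.0037). Without the highest 6% of doublet scores, the isotypes gave 1 pathway gene higher. S-like IgG against IgM cells gave the opposite direction for Rrm1 (0.022). With gates of 2 UMIs, the zone gates gave 2186 called genes and 10 pathway genes higher. S-like light against dark cells gave 337 called genes and 0 pathway genes higher. With equal phase shares, the zone gates gave the opposite direction for Tyms (0.034). The isotypes gave 0 enzyme genes higher and the opposite direction for Rrm2 (-0.028) and Dut (-0.011). With the stricter isotype call, the isotypes gave 4 enzyme genes higher, 1 enzyme gene lower, 19 pathway genes higher and the opposite direction for Tk1 (0.052), Dck (-0.0067) and Dtymk (0.083). The isotypes within S-like cells gave 1 enzyme gene higher, 8 pathway genes higher and the opposite direction for Dut (0.0018). With no filter on low counts, the isotypes within S-like cells gave 6 called genes, 0 pathway genes lower and the opposite direction for Rrm1 (0.0087). With library totals that leave out immunoglobulin and mitochondrial genes, the isotypes within S-like cells gave the opposite direction for Rrm1 (0.0042).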
